A study of Mus musculus with 6 samples.

Results

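NF-YA binding was examined at 10 genes of G1 control in mouse muscle stem cells (MuSCs), chosen by name: the D-type cyclins *Ccnd1*, *Ccnd2* and *Ccnd3*, the E-type cyclins *Ccne1* and *Ccne2*, the kinases *Cdk4* and *Cdk6*, and the CDK inhibitors *Cdkn1a*, *Cdkn1b* and *Cdkn1c*. A peak counted for a gene when the deposited annotation carried its symbol. Of the 10 genes, 7 had at least 1 peak, and together they held 8 of the 9056 peaks. The peaks came from CUT&RUN, in which an antibody directs a nuclease to its target and the DNA released around it is sequenced. The libraries were made from cultured wild-type MuSCs of C57BL/6 mice, labelled as activated and proliferating, 3 with an antibody against NF-YA and 3 with mouse IgG. Only the 3 NF-YA libraries were analysed here. The study describes the 3 libraries as biological replicates, and whether each came from a separate animal or culture is not given in the sources used here. Binding does not report expression, and the labelled cell type was not checked against marker transcripts.

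NF-Y is a trimer that recognises the CCAAT box, with NF-YA as the subunit that contacts DNA, and it is known from the promoters of many cell cycle genes. D-type cyclins activate CDK4 and CDK6 in early G1, and E-type cyclins then activate CDK2, so that the retinoblastoma protein is phosphorylated and E2F factors are released. The inhibitors p21, p27 and p57, encoded by *Cdkn1a*, *Cdkn1b* and *Cdkn1c*, restrain these kinases, and p21 and p57 are known to be needed for cell cycle exit of differentiating muscle cells.

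Sequences under 7 of the 8 peaks are shown first, because the peaks separated into those with several CCAAT boxes, those with 1 box and those with none. They were read from the mouse assembly GRCm38 (mm10) and are written 5′ to 3′ on the strand of the gene. Capitals mark each CCAAT box, which reads ATTGG when it lies on the opposite strand. The *Ccne1* distal peak is given for its array of boxes, and the stretch holds 5 of the 6 boxes in the peak.
Ccne1 distal, chr7:38112153-38112451, minus strand: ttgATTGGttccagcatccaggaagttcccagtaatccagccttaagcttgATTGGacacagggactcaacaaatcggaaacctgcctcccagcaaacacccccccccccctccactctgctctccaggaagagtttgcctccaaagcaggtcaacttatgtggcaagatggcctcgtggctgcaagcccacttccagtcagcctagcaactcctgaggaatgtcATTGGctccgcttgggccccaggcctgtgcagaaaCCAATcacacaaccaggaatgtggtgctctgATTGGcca

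The next stretches belong to peaks with 1 to 3 boxes. The *Ccnd1* and *Ccne2* peaks are given whole, and the *Ccnd3* and *Cdkn1b* stretches run from the first box to the last with 10 bases on either side.
Ccnd1 distal, chr7:144941514-144941746, minus strand: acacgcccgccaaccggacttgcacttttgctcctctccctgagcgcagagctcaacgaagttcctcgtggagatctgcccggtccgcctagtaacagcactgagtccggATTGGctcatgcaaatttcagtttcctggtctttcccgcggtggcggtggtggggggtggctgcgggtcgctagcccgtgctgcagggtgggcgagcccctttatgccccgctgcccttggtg
Ccnd3 distal, chr17:47511255-47511404, plus strand: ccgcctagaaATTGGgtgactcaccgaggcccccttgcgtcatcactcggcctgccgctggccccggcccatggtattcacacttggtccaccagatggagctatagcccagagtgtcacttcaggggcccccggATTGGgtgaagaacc
Ccne2 promoter, chr4:11191226-11191325, plus strand: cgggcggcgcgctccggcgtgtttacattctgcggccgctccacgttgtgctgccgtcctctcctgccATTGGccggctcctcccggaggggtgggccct
Cdkn1b distal, chr6:134928638-134928893, plus strand: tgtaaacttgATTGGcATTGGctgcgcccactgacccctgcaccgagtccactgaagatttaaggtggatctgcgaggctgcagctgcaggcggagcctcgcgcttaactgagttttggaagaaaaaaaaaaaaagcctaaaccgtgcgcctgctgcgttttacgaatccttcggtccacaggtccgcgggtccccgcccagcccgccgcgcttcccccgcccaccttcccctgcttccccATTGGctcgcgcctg

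In the promoter peaks of *Ccne1* and *Cdk4* no CCAAT was found on either strand. Both are given whole, with the GC box GGGCGG, the core of sites bound by Sp family factors, in capitals. It reads CCGCCC on the opposite strand.
Ccne1 promoter, chr7:38107621-38107751, minus strand: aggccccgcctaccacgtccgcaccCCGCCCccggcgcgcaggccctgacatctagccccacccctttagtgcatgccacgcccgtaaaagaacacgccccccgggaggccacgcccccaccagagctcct
Cdk4 promoter, chr10:127063385-127063510, plus strand: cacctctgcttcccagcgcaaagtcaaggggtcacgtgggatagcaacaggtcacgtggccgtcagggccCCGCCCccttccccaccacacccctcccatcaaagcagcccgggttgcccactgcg

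Levels are given as normalised reads, that is, reads in a peak after the authors scaled each library by its size factor and rounded the result. The 3 libraries held about 477155, 226924 and 334651 reads in peaks, so that replicate 2 had the fewest. This is not sequencing depth, as the study lists more uniquely mapped reads for replicate 2 than for replicates 1 and 3. It also lists a shorter read length for replicate 1 than for replicates 2 and 3. Among the 3 libraries, the study counts the largest number of enriched peaks in replicate 1. The libraries were thus not equivalent, and the part of these differences in the levels and in the peaks called was not tested. With a floor set at 3 reads, the lowest level told from 0 was 2.01 in replicate 1, 4.43 in replicate 2 and 3.06 in replicate 3. Across all peaks, 0.497%, 15.6% and 8.52% lay at or below this floor. Counting intervals were not attached to single peaks, since rounding hides the exact counts, and floors cover counting error only.

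At the level of genes, 7 of 10 had an annotated peak, compared with 19.0% of 21938 protein-coding genes. When a peak centre within 10000 bp of any transcript start was required instead, 7 of 10 genes had one, and 27.7% of all protein-coding genes did. Within 1000 bp of any transcript start the count was 5 of 10. With annotated peaks of a mean of at least 10 it was 6 of 10. The shares of all protein-coding genes at these stricter settings are not given here. The genes without an annotated peak were *Ccnd2*, *Cdk6* and *Cdkn1a*, and they belong to 3 different roles. Hence the cyclins, the kinases and the inhibitors each contained genes with and without a peak. A peak is called a promoter peak if no more than 1000 bp separated its centre from the transcription start site (TSS), and distal otherwise. The 8 peaks fell into 4 promoter peaks (*Ccne1*, *Ccne2*, *Cdk4* and *Cdkn1c*) and 4 distal peaks (*Ccnd1*, *Ccnd3*, *Ccne1* and *Cdkn1b*). Among all 6191 gene-annotated peaks, 39.5% were distal.

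**Figure D1:**
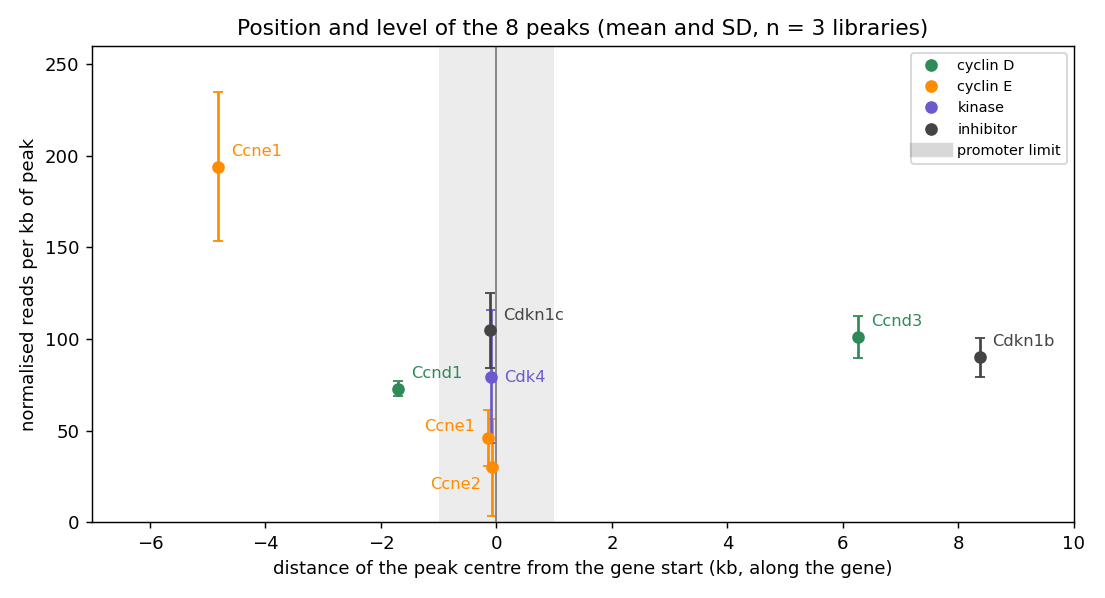
Distance of each peak centre from the start of its gene (x axis, kb along the gene) and NF-YA level (y axis, normalised reads per kb of peak); points are means and bars SD over the 3 libraries, colours mark the role of the gene, and grey marks the promoter limit of 1000 bp. The *Ccne1* peak 4820 bp from the start lies highest, at 194 per kb, and the 4 promoter peaks lie between 30 and 105 per kb.

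The annotated peaks of the D-type cyclins, which link growth factor signals to CDK4 and CDK6, were all distal. At *Ccnd1* (ENSMUSG00000070348) the peak lay at chromosome 7, 144941514 to 144941746, between genes and 1705 bp upstream of the TSS. Replicates 1, 2 and 3 had 17, 18 and 16 normalised reads there, with a mean of 17 ± 1 (SD, n = 3). The values were nearly equal, and their coefficient of variation (CV) of 5.88% was below the 25.0% that counting alone would give at this number of reads. In the order of all peaks by mean this peak ranked 4112, close to the middle. The single CCAAT box was centred 4 bp from the peak centre, on the strand opposite to the gene, and the E2F-type element TTCCCGC was found within 50 bp of the centre as well. This element was present in 1.65% of all windows of the same width and in 1 of those of the 8 peaks. The other E2F-type element searched, TTGGCGC, was found in 0 of the 8 windows and in 1.00% of all.

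*Ccnd3* (ENSMUSG00000034165), the D-type cyclin that rises when myoblasts differentiate, had its annotated peak in an intron at chromosome 17, 47511158 to 47511474, 6265 bp downstream of the TSS. The values were 35, 28 and 33 normalised reads, with a mean of 32 ± 3.61 (SD, n = 3). Replicate 2 was lowest, and the CV of 11.3% was again below the 18.2% expected from counting. Of all peaks, 71.8% had a lower mean. Its boxes were 125 bp apart, both on the opposite strand, and the AP-1 element TGACTCA lay within 50 bp of the centre. This element was found in 9.71% of all windows of this width and in none of those of the other 7 peaks.

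The *Ccnd3* gene spans 94641 bp with 19 distinct transcript starts, and 5 further peaks were centred inside it without any gene in the deposited annotation. Of these, the one at 47595831 to 47596143 reached 35, 24 and 29 normalised reads, a mean of 29.3 ± 5.51 (SD, n = 3). This level overlapped that of the annotated peak in range. Its centre lay in an exon and 81.5 bp from the start of a shorter *Ccnd3* transcript. A weaker peak at 47593242 to 47593433, with 11, 15 and 12 normalised reads, was centred 99 bp from another internal start. Both contained 1 CCAAT box. The other 3 unannotated peaks had means of 12, 13 and 19.7 and no CCAAT. In the peak with a mean of 13 the libraries disagreed, with 11, 3 and 25 normalised reads, and replicate 2 was below the floor. Measured to any *Ccnd3* transcript start, 3 peaks were thus centred within 1000 bp, none of them the annotated one.

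**Figure D2:**
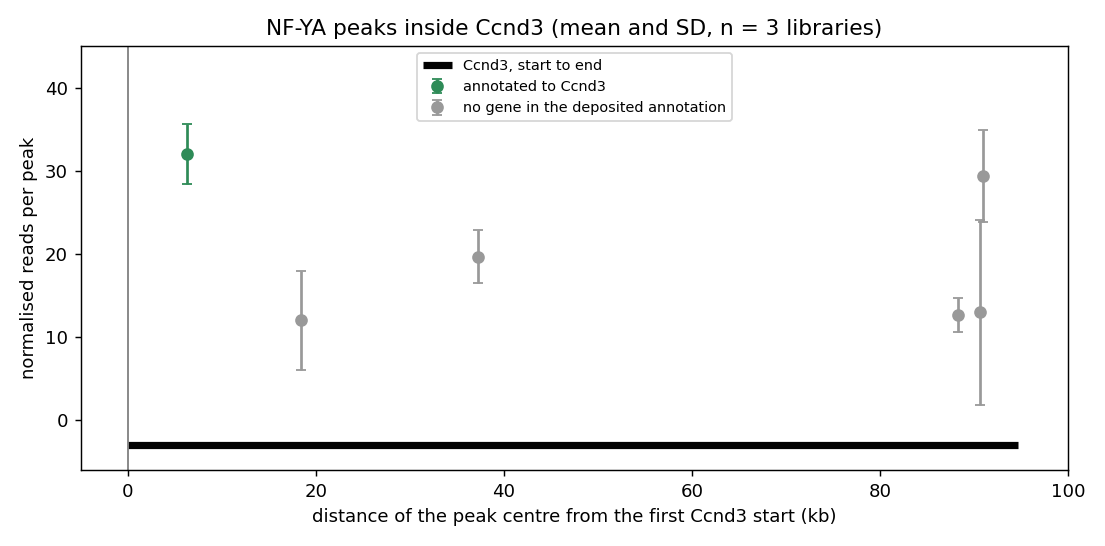
Peaks inside *Ccnd3* by distance from the first start of the gene (x axis, kb) and level (y axis, normalised reads per peak); points are means and bars SD over 3 libraries, colour marks the peak annotated to *Ccnd3* and grey are the 5 peaks with no gene. The peak near the end of the gene, at 29.3, overlaps the annotated peak at 32.

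*Ccnd2* (ENSMUSG00000000184) had no annotated peak. The nearest peak centre was 29503 bp from any of its transcript starts and belonged to *Tigar*, with 14, 10 and 17 normalised reads. Among protein-coding genes the median distance from a transcript start to the nearest peak centre was 54281 bp. Of these genes, 60.3% had no peak centre within 29000 bp.

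The E-type cyclins, which activate CDK2 at the entry into S phase, carried both the strongest and the weakest signals. At *Ccne1* (ENSMUSG00000002068) the distal peak lay between genes at chromosome 7, 38111981 to 38112727, 4820 bp upstream of the TSS. It held 114, 146 and 175 normalised reads, a mean of 145 ± 30.5 (SD, n = 3). Replicate 1 was lowest and replicate 3 highest, a 1.54-fold range. The CV of 21.0% exceeded the 8.53% expected from counting, so for this peak the spread between libraries was larger than sampling alone would give. It ranked 433 of 9056 peaks. Among the 2445 distal peaks, 98.2% had a lower mean, and 93.3% had a lower level per kb. Of the 1436 annotated peaks at least 4000 bp from a TSS, 20 had a mean at least as high, this peak included. On levels per kb the same count was 94. No transcript start of any gene in GENCODE M21 was within 1000 bp of its centre.

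This peak was also the longest of the 8, with 747 bp, and contained 6 CCAAT boxes. Only 95 of 9056 peaks (1.05%) had 6 or more, a number that also depends on peak length. Of the 6 boxes, 4 lay on the strand opposite to the gene, and 4 matched the longer consensus RRCCAATSR. None lay in soft-masked sequence, which marks repeats. The starts of neighbouring boxes were 31, 35, 174, 48 and 39 bp apart. The box not contained in the stretch shown above reads gataagaaacCCAATcccaactagc on the strand of the gene, at chr7:38112473-38112497. Compared over the 3 libraries on log2(value + 1), the promoter peaks of other genes with the most similar levels were those of *Bcl2l1*, *Zfp870* and *Cish*, at Euclidean distances of 0.10, 0.11 and 0.13.

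The promoter peak of *Ccne1*, at 38107621 to 38107751 and 152 bp upstream of the TSS, was weak. It held 8, 4 and 6 normalised reads, a mean of 6 ± 2 (SD, n = 3), and replicate 2, with about 3 reads, was not above the floor. The distal peak exceeded it in 3 of 3 libraries. On log2(value per kb + 1) the difference was 1.31, 2.64 and 2.33, a mean of 2.09 ± 0.70 (SD, n = 3). An exact sign-flip permutation test, two-sided, gave p = 0.25, the smallest that 3 libraries allow. The promoter peak held no CCAAT, and the RefSeq promoter of *Ccne1*, 250 bases before to 50 after the start, held none either.

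*Ccne2* (ENSMUSG00000028212) had the weakest peak of the group, at chromosome 4, 11191226 to 11191325, 76 bp upstream of the TSS. Its values were 5, 0 and 4 normalised reads, a mean of 3 ± 2.65 (SD, n = 3), and only 1.41% of all peaks had a lower mean. Replicate 2 was listed at 0, which allows up to 4.43 normalised reads at the floor of this library, a limit that replicate 3 did not exceed. The peak nevertheless contained a CCAAT box that matched the longer consensus, 55 bp upstream of the TSS and on the opposite strand. A consensus box close to the start was thus present here with a level near the limit of detection. The *Ccne1* promoter peak had no box and a level of 6. These levels could not be told apart, as they differed by 1.82 ± 2.74 (SD, n = 3) on log2(value per kb + 1).

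**Figure D3:**
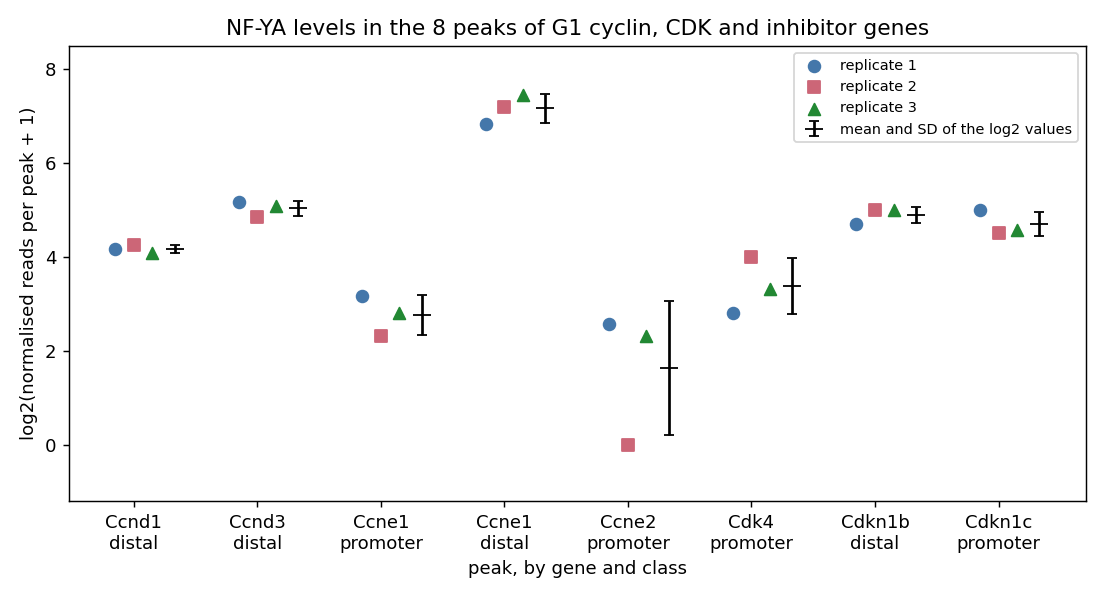
NF-YA level of each of the 8 peaks in each library (y axis, log2 of normalised reads per peak + 1; x axis, peak); symbols are the 3 replicates, and the horizontal mark with its bar is the mean and SD of the log2 values. The *Ccne1* distal peak stands above all others in every library, and the *Ccne2* peak falls to 0 in replicate 2.

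*Cdk4* (ENSMUSG00000006728), the kinase partner of the D-type cyclins, had a promoter peak at chromosome 10, 127063385 to 127063510, 87 bp upstream of the TSS. The values were 6, 15 and 9 normalised reads, a mean of 10 ± 4.58 (SD, n = 3). The libraries differed 2.5-fold, with replicate 2 highest, and the CV of 45.8% compared with 32.6% from counting. These values stood for only about 9, 10 and 9 reads. The peak and the RefSeq promoter of *Cdk4* contained no CCAAT, and a GC box lay 76.5 bp upstream of the TSS. *Cdk6* (ENSMUSG00000040274), the other D-cyclin kinase, had no peak within its 189524 bp. No peak centre was within 50000 bp of any *Cdk6* start either.

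Among the inhibitors, *Cdkn1c* (ENSMUSG00000037664), which encodes p57, had the only promoter peak, on chromosome 7. It was the only one of the 8 peaks to overlap the TSS of its gene. The level was 31, 22 and 23 normalised reads, a mean of 25.3 ± 4.93 (SD, n = 3), with replicate 1 highest. The CV of 19.5% was close to the 20.4% expected from counting. It had 3 CCAAT boxes, all 3 upstream of the TSS and on the strand of the gene, and 1 of them matched the longer consensus. Across all peaks, 11.7% had at least 3 boxes. *Cdkn1c* was the only gene of the 10 with a promoter peak that had several CCAAT boxes on its own strand.

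*Cdkn1b* (ENSMUSG00000003031), which encodes p27, had a distal peak at chromosome 6, 134928610 to 134928931, centred 8369 bp downstream of the TSS and 3257 bp past the end of the gene. The values of 25, 31 and 31 normalised reads gave a mean of 29 ± 3.46 (SD, n = 3), and the CV of 11.9% was below the 19.1% from counting. This peak lay 322 bp upstream of the first start of *Lockd* (ENSMUSG00000098318), a long noncoding RNA gene on the same strand, and was therefore within 1000 bp of a TSS of *Lockd* but of no *Cdkn1b* transcript. All 3 boxes lay on the strand opposite to both genes, with a pair only 6 bp apart. The RefSeq promoter of *Cdkn1b* contained 3 CCAAT boxes, starting 161 and 35 bases before and 45 after the start, and the peak centre nearest to any *Cdkn1b* start was 8257 bp away. Among all genes, 37.4% of 32851 RefSeq promoters (GRCm38.p6) held at least 1.

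*Cdkn1a* (ENSMUSG00000023067), which encodes p21 and is induced as muscle cells differentiate, had no annotated peak. The nearest centre was 32785 bp from a *Cdkn1a* start and carried 10, 4 and 7 normalised reads. Neither of its RefSeq promoters contained CCAAT. RefSeq promoters were found for 6 of the 10 genes, and those of *Ccnd1*, *Ccnd2*, *Ccne2* and *Cdkn1c* were not used here. That of *Cdk6* contained no CCAAT. At *Ccnd3*, the RefSeq promoter of the first start held none. The one at 47593217 to 47593516 held 1, starting 108 bases before the start, and overlapped the unannotated peak at 47593242 to 47593433. Reads outside the peaks were not analysed, so a weaker signal at *Ccnd2*, *Cdk6* and *Cdkn1a* cannot be judged.

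To determine how the levels compare with those of other genes, values per kb of peak were set beside all 3746 promoter peaks. The median promoter peak had 114, 121 and 123 normalised reads per kb in replicates 1, 2 and 3. Of the 4 promoter peaks, 0 were above this median in all 3 libraries, whereas 40.1% of all promoter peaks were. *Cdkn1c* came closest, with 128, 90.9 and 95.04 per kb, and was above the median in replicate 1 only. *Cdk4* had 47.6, 119 and 71.4, *Ccne1* 61.1, 30.5 and 45.8, and *Ccne2* 50, 0 and 40 per kb. All 3 were below the median in every library.

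For the distal peaks, the levels per kb of all 4 were above the median of 70.5 for all distal peaks, with means of 73.0 ± 4.29 for *Ccnd1*, 90.1 ± 10.8 for *Cdkn1b*, 101 ± 11.4 for *Ccnd3* and 194 ± 40.8 for *Ccne1* (SD, n = 3). The difference of *Ccnd1* from this median was within its SD. In replicate 3 *Ccnd1* had 68.7 per kb, below the median distal peak of that library at 70.5. The share of all distal peaks above the median in all 3 libraries is not given here. Over the 4 genes of each class, the median distal peak had 94.0, 92.3 and 100.2 normalised reads per kb in replicates 1, 2 and 3, and the median promoter peak 55.5, 60.7 and 58.6. The log2 ratio of distal to promoter was 0.71 ± 0.09 (SD, n = 3). In all gene-annotated peaks the same ratio was -0.77 ± 0.04 (SD, n = 3), so there the promoter peaks were higher. On values per peak the ratios were 1.94 ± 0.27 and -1.28 ± 0.15. The signs were opposite in each of the 3 libraries. With 4 peaks per class, this describes the chosen genes and was not tested.

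**Figure D4:**
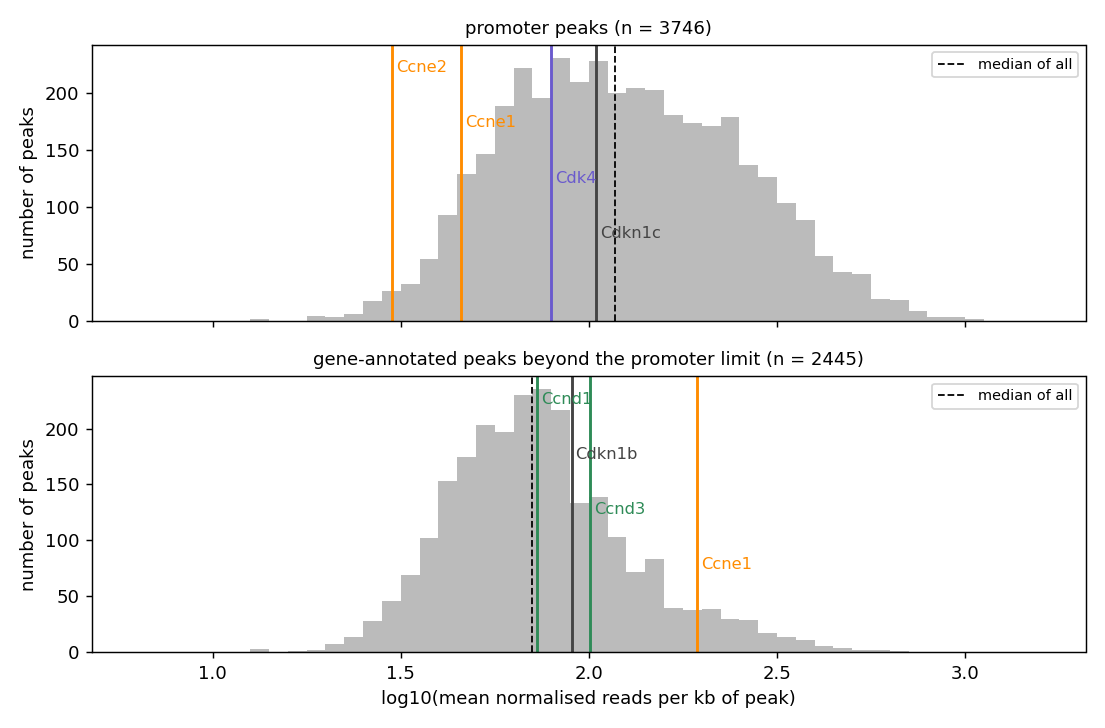
Distribution of the mean level of all promoter peaks (top) and of all distal gene-annotated peaks (bottom) on a log10 axis (x, normalised reads per kb of peak; y, number of peaks), with the 8 peaks as coloured lines and the median of each class dashed. The 4 promoter peaks lie to the left of the promoter median of 117, and the 4 distal peaks lie to the right of the distal median of 70.5.

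The order of the promoter peaks by level per kb was *Cdkn1c*, *Cdk4*, *Ccne1* and *Ccne2*, with means of 105 ± 20.4, 79.4 ± 36.4, 45.8 ± 15.3 and 30 ± 26.5 (SD, n = 3). On log2(value per kb + 1), neighbours differed by 0.48 ± 0.90, 0.74 ± 1.14 and 1.82 ± 2.74. In 0 of the 3 pairs was the mean difference beyond 2 SD with the same sign in all libraries. Exact sign-flip permutation tests gave two-sided p-values of 0.5, 0.5 and 0.25, and each was 0.5 after Benjamini-Hochberg adjustment over the 3 pairs. The last difference depended on the value of 0 for *Ccne2* in replicate 2, and without that replicate it was 0.24. Across all 8 peaks, 0 of 7 neighbouring pairs differed beyond 2 SD either, and the smallest adjusted p was 0.583 in the same exact permutation test. The *Ccne1* distal peak was nevertheless above the next peak, that of *Cdkn1c*, in 3 of 3 libraries, by 0.88 ± 0.55 on log2(value per kb + 1).

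CCAAT was then counted within 50 bp of the peak centre, so that peaks of all lengths were compared over windows of equal width. A box was found in 4 of the 8 peaks (*Ccnd1*, *Ccne1* distal, *Ccne2* and *Cdkn1c*), against 52.9% of all peaks. The share in the 8 peaks was thus close to that of all peaks. A box counted only if all its bases lay in the window. A box of the *Ccnd3* distal peak, with its middle 49 bp from the centre, crossed the edge and was not counted. With 100 bp to each side, 5 of the 8 peaks had a box, against 64.9% of all peaks. Over the whole length, 6 of 8 peaks contained a box, compared with 64.5% of all peaks. In total there were 16 boxes, of which 11 lay on the strand opposite to the gene, 7 matched the longer consensus and 0 were in soft-masked sequence. In the central window of 50 bp to each side, GGGCGG occurred in all 4 promoter peaks and in none of the 4 distal peaks. Over the whole length, the *Cdkn1b* distal peak held 2 such sites, 63.5 and 86.5 bp from its centre, so this contrast depends on the window. Of all peaks, promoter peaks and others together, 21.3% had it in this window, and the share among promoter peaks alone is not given here. The promoter peaks had a median GC content of 71.8%, compared with 61.3% for all promoter peaks, and the part of GC content in the frequency of GGGCGG was not tested. CAGCTG, the E-box bound by myogenic factors, lay wholly in this window in 0 of 8 peaks and in 15.1% of all peaks. The *Cdkn1b* stretch shown above holds a CAGCTG that crosses the edge of the window, so this count depends on the window as well.

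**Figure D5:**
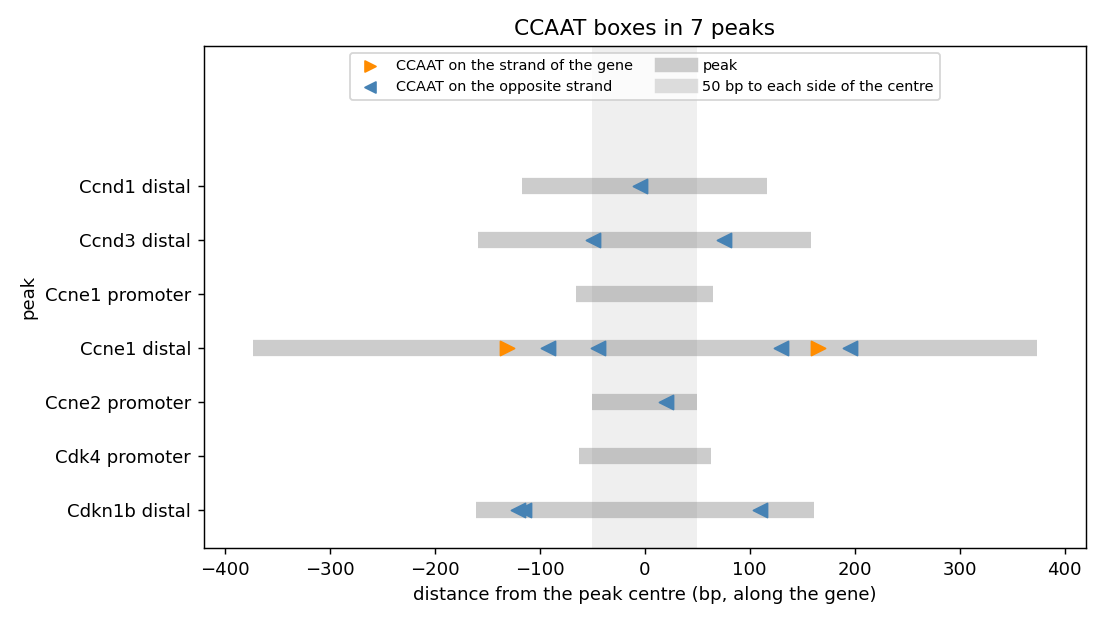
Position of CCAAT boxes in 7 of the peaks, without that of *Cdkn1c* (x axis, bp from the peak centre along the gene; y axis, peak); grey bars are peaks drawn to scale, the shaded band is 50 bp to each side of the centre, and arrowheads show the strand of each box. The *Ccne1* distal peak has 6 boxes on both strands, and the promoter peaks of *Ccne1* and *Cdk4* have none.

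Other genes of the G1 network were counted in lists. Of 33 such genes, 10 had a peak (30.3%, against 19.0% of all protein-coding genes), with 16 peaks in total and a median level of 95.5 per kb, compared with 84.7 for the 8 peaks above and 79.5 for all peaks. CCAAT was within 50 bp of the centre in 7 of the 16, against 52.9% of all peaks. The lists below hold few genes each, and their counts are to be read against the same 19.0%. Among the E2F and DP factors, which receive the signal of the G1 kinases, 6 of 10 had a peak. The highest was that of *E2f3*, with 245, 293 and 297 normalised reads, and it contained 4 CCAAT boxes but none within 50 bp of the centre. *E2f2* had 4 peaks with means from 4.67 to 46.3, and *E2f8* had 2, a distal one with a mean of 3 and a promoter peak with 50.3. Of the INK4 inhibitors, which act on CDK4 and CDK6 alone, 1 of 4 had a peak. This was *Cdkn2d*, which encodes p19, with 283, 236 and 242 normalised reads, 22 bp from its start. Among the CDK inhibitors of both families *Cdkn2d* therefore had the highest level, 403 ± 40.6 per kb, compared with 105 ± 20.4 for *Cdkn1c* (SD, n = 3), and their ranges did not overlap.

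Among the remaining G1 kinases and activators, 2 of 6 had a peak. *Cdc25a*, the phosphatase that activates CDK2, reached 117, 92 and 83 normalised reads at its promoter, and *Cdk7* held 4, 4 and 9. Of the pocket proteins, to which the retinoblastoma protein belongs, 0 of 3 had a peak. In the list for turnover of cyclins and inhibitors, 1 of 8 genes had peaks. This was *Fbxo31*, which encodes an F-box protein acting on cyclin D1, with 3 peaks of 3, 5.33 and 47 on average, the highest of them 5284 bp from the start. Its distal peak was higher than its promoter peaks in all 3 libraries, whereas for *E2f8* the promoter peak was higher than the distal one in all 3. The list of upstream regulators, with 2 genes, contained 0 with a peak.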

How the data were processed

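CUT&RUN libraries of NF-YA (n = 3) and IgG (n = 3) in cultured MuSCs were described by the labels, and only NF-YA had values analysed here. According to their methods and the labels, the authors trimmed reads with Trimmomatic 0.39, aligned them with STAR 2.7.9a to mm10, removed duplicates with Picard 2.25.5, called peaks with MACS2 at a false discovery rate below 0.05, unified them, counted reads with featureCounts and scaled them with DESeq2 1.30.0. The deposited values are a score: size-factor-scaled reads per peak, rounded and not corrected for length. Since the peaks were called on these same libraries, their presence and their values are not independent. Each was annotated to the nearest gene within 10000 nt of a TSS. In total, 0 per-sample columns could not be assigned.

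The worth of 1 read in each library was estimated by likelihood from how often each rounded value occurred among its neighbours (0.67, 1.48 and 1.02 normalised reads). In 5 simulations over 9056 peaks the error was at most 0.0625%. These used Poisson counts and true worths that lay on the grid of values searched. They show that the search works, and they do not give its accuracy for the deposited values. Approximate reads are values divided by this worth, and the expected CV follows from it. Size-factor scaling hides any change common to all peaks. For 8 of 8 peaks the annotated gene matched GENCODE M21 in start and end, and positions are counted from 1. Motifs were searched on both strands. Pseudocount, windows and limits are given with the results.

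The members, lists and tests were chosen with earlier results of these data known. Named were all 10 genes with their peaks, the nearest peak of genes without one, the highest peak of each list, genes with several peaks, genes starting within 1000 bp, and the promoter peaks most alike to the highest peak. *Tigar* is named as the annotated gene of a nearest peak, and *Cdk7* was named after its values were seen. The peak nearest to *Cdk6* and the sequence of the *Cdkn1c* peak are not reported here. Alternatives covered pseudocounts of 0.5 and 5, a minimum mean of 10, library size by total reads in peaks, values per peak, other TSS limits and windows, and leaving out each replicate. The software was matplotlib 3.10.9, numpy 2.4.6, pandas 2.3.3, pysam 0.24.0 and scipy 1.17.1 under Python 3.11.15.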

Additional observations from a re-analysis of the deposited data

How the results depend on the processing

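No paired analysis was possible because all values came from 1 group, so that replicate numbers pair no groups. Differences between peaks were taken within each library. The 53 alternatives for single peaks and pairs of peaks left each value within its SD or its direction unchanged, and 21 of 26 alternatives for the summary results kept the value within its spread or within 1.5 times the count. With a promoter limit of 5000 bp, 1 peak was above the median promoter peak in all libraries, since the wider limit takes in the *Ccne1* distal peak. It was 0 in each case when a replicate was left out. The longer consensus RRCCAATSR occurred in the central window in 2 of 8 peaks and in 25.0% of all peaks, as it is stricter by construction. The median level over the 8 peaks, 21.2 normalised reads, ranged from 19.8 to 22 when each replicate was left out. The cause was not tested. Between 0 and 1 neighbouring pair of promoter peaks differed beyond 2 SD when a replicate was left out, and that pair was *Ccne1* and *Ccne2* without replicate 2, where 2 libraries remained. Counting all member peaks, near and far from the start, was chosen after seeing the data. So was adding the unannotated peaks inside *Ccnd3* to the CCAAT count. This addition gave 6 peaks with a box among the 8 annotated and 5 unannotated peaks. Among the 8 peaks, the low number of reads limits statements on the *Ccne1* promoter and *Ccne2* peaks most, as each had 2 of 3 libraries above the floor of 3 reads. In the lists, the *E2f8* distal peak, with 4, 3 and 2 normalised reads, was above the floor in replicate 1 only. The same held for the *Fbxo31* peak with 5, 1 and 3. *Cdk7* was not above the floor in replicate 2, with 4.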
